A study of Oryza sativa with 12 samples.

Results

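Leaf transcripts of the rice line Nongken 58S under short days (SD) were compared with those under long days (LD) at the pistil/stamen primordium forming stage, on the 6 arrays whose titles carry P-SSD (repeats 1 to 3) or P-SLD (repeats 1 to 3), of 12 arrays in the study. Nongken 58S is a spontaneous photoperiod-sensitive male sterile mutant of the japonica cultivar Nongken 58, and all groups were of this line. The plants grew under natural conditions and all received SD until their inflorescences reached the secondary branch stage, after which P-SSD plants were kept at 10 h light and 14 h dark and P-SLD plants at 15 h light and 9 h dark. RNA came from the second fully expanded leaf, taken at 1 clock time, and was hybridised to the Affymetrix rice genome array as 3 biological repeats per group. The sources used here do not say how many plants went into a sample. The other 6 arrays hold the same day lengths at the earlier glume primordium differentiation stage.

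Rice is a short-day plant. Leaves measure day length by setting light signals against the circadian clock, and inductive days lead to the expression of Ehd1, a B-type response regulator, which promotes transcription of Hd3a. The Hd3a protein is a florigen that moves from the leaf to the shoot apex. In Nongken 58S day length acts again after this step, because the pollen of plants exposed to long days during inflorescence development is sterile.

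Values came from a pair of deposited tables of signal intensity, the brightness of a probe set on an arbitrary linear scale. One holds 57381 probe sets without gene names. The other holds 201 annotated entries that the authors listed for a ratio of SD to LD of at least 2 or at most 0.5, with 6 signals each. Ratios were computed here from the mean signals, and differences are on the log2 scale, SD minus LD, with the standard error of a limma fit. The genes had been listed on these same arrays, by their fold and, in the study's methods, by a t-test at P under 0.05. Each p-value was therefore adjusted for 57194 tests, the number of probe sets on the array that are not controls. The spread in this fit was estimated from the 201 chosen entries alone. Such a choice favours entries with a small spread, and the adjustment does not correct for that. This fit with its adjusted p-values is called the listed-gene test, and "rose" or "fell" is used only for a gene that passed it at 0.05. Failing it does not show that a gene was equal between day lengths, and no background level was measured for dim signals. In whole leaf tissue, fewer cells of a type and less RNA per cell cannot be told apart. The leaf markers RBCS2 and CAB2R could not be matched to a probe set, so the tissue label was not checked against them.

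P-SSD repeat 1 stood apart from the other arrays in some controls. The bioD spike-in control gave 142.5 at its 3' probe set there and 1937 to 2639 elsewhere in the study, and the 3' to 5' signal ratio, a sign of RNA or cRNA integrity, of this array was 10.5 for Gapdh and 25.1 for actin. On the other 5 arrays of the stage these ratios were 3.26 to 5.48 and 3.05 to 5.10. The ratio for a further control, Cyph, was 1.86 on P-SSD repeat 1, within the 0.596 to 2.41 of the other 5. The bioD 5' probe set gave 1145 there, also within the 974 to 1395 of the other 5. The log2 signals of P-SSD repeat 1 correlated with those of the other 5 arrays at r = 0.78 to 0.86 across probe sets. The highest correlations joined arrays of the same repeat number and different day length, 0.930 for P-SLD repeat 2 with P-SSD repeat 2 and 0.927 for the 2 arrays of repeat 3. A 25S rRNA probe set read 957 on P-SSD repeat 3 and 746 on P-SLD repeat 3, against 141.4 to 424 on the other 4. The part of these differences in the results was not tested, and results are given without P-SSD repeat 1 where that changes a call.

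Of the 201 entries, 98 were higher in SD and 103 lower. The higher entries had a median ratio of 3.57 and reached 65.1, and 31 of them were at least 5-fold higher. The lower entries had a median ratio of 0.404 and went down to 0.113, and 4 had a ratio of at most 0.2. The mean of the dimmer day length was under 25 for 19 entries, and 17 of these were higher in SD. With no background level measured, the size of ratios over such dim signals is uncertain. In limma, 9 entries rose (4.48%) and 0 fell, while all 201 entries, 98 higher and 103 lower, had an unadjusted p under 0.05. The entries had been chosen on these arrays. The study's methods describe a t-test at P under 0.05 besides the fold, so nothing is read from that count. The fit over all probe sets also used the glume stage arrays. In it 2 of 25360 (0.00789%) passed an adjusted p of 0.05, both higher in SD. Without a filter on low signals 2 of 57194 passed, so at least 7 of the 9 genes were not called there. With only the 6 arrays of the stage, those of the listed-gene test, 0 of 25360 passed (997 at an unadjusted p under 0.05). None of the 9 genes was thus called over all probe sets from these same arrays. The 3 SD signals lay wholly above or below the 3 LD signals for 177 of the 201 entries, 84 higher and 93 lower, and without P-SSD repeat 1 for 86 and 94. Over all probe sets 4.78% were wholly higher and 4.84% wholly lower, and without that array 8.48% and 8.21%. Of the 2480 probe sets that differed at least 2-fold in their log2 means, 822 (33.1%) did not overlap. None of these shares is a reference for entries chosen on the same arrays, so the non-overlap of the entries is a description. The listed entries just inside the bounds had ratios of 2.01 and 0.4996.

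Flowering genes were among those with the highest ratios. Hd3a (LOC_Os06g06320, chromosome 6), the florigen gene, read 320.2, 637 and 275 on P-SSD repeats 1, 2 and 3 and 11.4, 11.4 and 8.68 on the P-SLD repeats. Its lowest SD signal was thus well above its highest LD signal, although the SD arrays themselves differed more than 2-fold. Hd3a rose by 5.20 ± 0.38 (log2, standard error), with an adjusted p of 0.027 in limma. Ehd1 (LOC_Os10g32600, chromosome 10), the activator upstream of Hd3a, read 118.4, 224 and 296 in P-SSD and 8.72, 8.11 and 13.0 in P-SLD. The order of the SD arrays was not that of Hd3a, since repeat 3 was highest for Ehd1 and lowest for Hd3a. Ehd1 rose by 4.35 ± 0.39 (log2, standard error), with an adjusted p of 0.047 in limma.

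OsMADS1 (LOC_Os03g11614, chromosome 3), a MADS-box gene that specifies floral organs, read 735, 1030 and 793 in P-SSD leaves and 45.9, 75.3 and 115.1 in P-SLD leaves. It was 10.8-fold higher in SD with no overlap, but its log2 difference of 3.52 (standard error 0.40) had an adjusted p of 0.15 in limma. Of a list of 12 flowering time and floral identity loci, these 3 were among the listed entries, all higher in SD, and 2 of them rose. The other 9, among them Hd1, Ghd7 and OsMADS14, were not among the entries and their signals were not analysed here. Without P-SSD repeat 1 the ratio of Hd3a was 43.5 and that of Ehd1 was 26.1, with adjusted p-values of 0.12 and 0.061 in limma, so neither passed. In a fit with the repeat number as a block each had an adjusted p of 0.13 in limma and did not pass either.

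**Figure D1:**
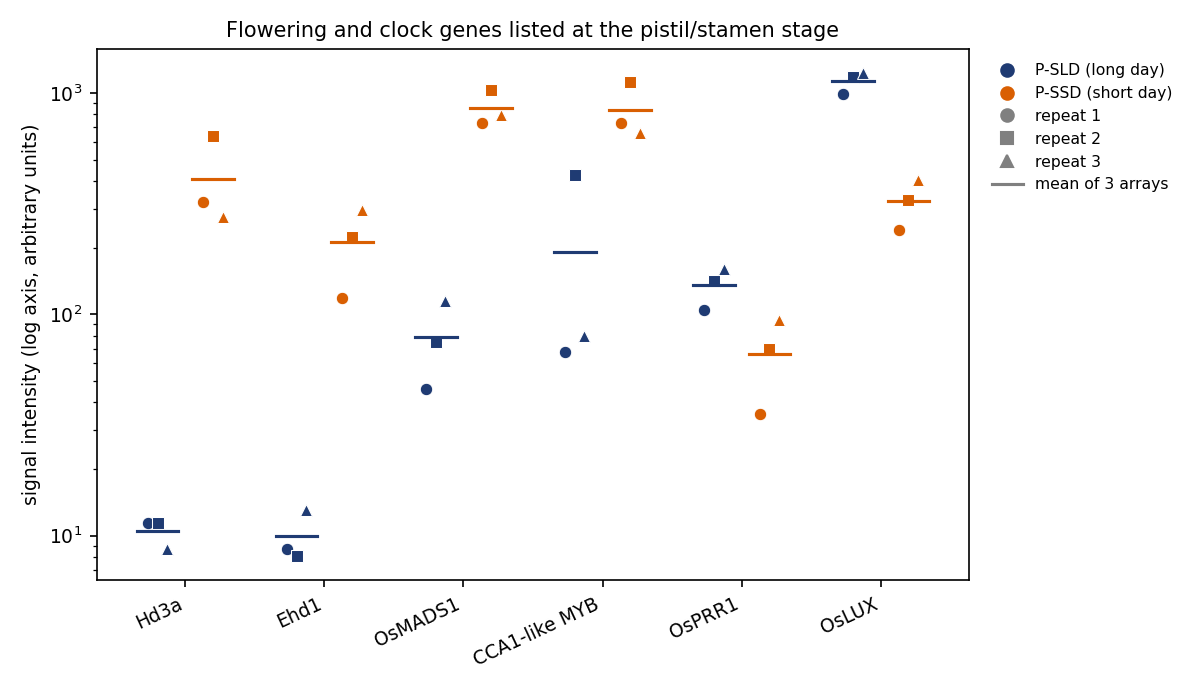
Signal intensity (log axis, arbitrary units) of the 3 flowering and 3 clock genes listed at the pistil/stamen stage, 1 point per array with the repeat shown by its shape, blue for P-SLD and orange for P-SSD, and a bar at the mean of 3 arrays. Hd3a, Ehd1 and OsMADS1 are higher on every SD array, OsPRR1 and OsLUX are lower on every SD array, and P-SLD repeat 2 of the CCA1-like MYB gene, at 427, lies far above the other LD arrays.

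The clock genes went in both directions, and none passed the listed-gene test. Leaves were taken at 1 clock time, so a change in level and a shift of a daily rhythm cannot be told apart. Directions follow the names of the deposited signal columns, and the study's text words OsPRR1 and the CCA1-type MYB gene the opposite way for this comparison. OsLUX (LOC_Os01g74020, annotated as ARR1 protein-like), whose Arabidopsis homologue LUX is part of the clock's evening complex, read 241, 330 and 406 in P-SSD and 987, 1185 and 1227 in P-SLD. The groups did not overlap, and LD was 3.48-fold higher (log2 difference -1.83, standard error 0.31, adjusted p = 0.86 in limma). OsPRR1 (LOC_Os02g40510), the rice homologue of the evening gene TOC1, read 35.3, 69.8 and 94.1 in P-SSD and 104.4, 140.8 and 160.1 in P-SLD. Its highest SD signal was close to its lowest LD signal, and its ratio of 0.492 became 0.607 without P-SSD repeat 1. LOC_Os06g51260, annotated as a CCA1-type MYB gene, the class of the morning clock repressors, read 734, 1117 and 659 in P-SSD and 67.5, 427 and 80.1 in P-SLD. P-SLD repeat 2 was thus between the other LD arrays and the SD arrays. The ratio of 4.36 became 11.3 without that array and 3.30 without P-SLD repeat 1. Of 14 clock loci 3 were listed, 1 higher and 2 lower in SD, and of 6 photoreceptor loci 0 were listed.

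The gene with the highest ratio was OsPDIL5-3 (LOC_Os02g34530, chromosome 2), which encodes a protein disulfide isomerase, an enzyme that forms and rearranges disulfide bonds of proteins in the secretory pathway. It read 1178, 1135 and 1092 in P-SSD and 16.7, 17.0 and 18.6 in P-SLD. Repeats of each day length lay close together, and the lowest SD signal was 58.6 times the highest LD signal. OsPDIL5-3 rose by 6.03 ± 0.28 (log2, standard error), with an adjusted p of 0.0039 in limma. LOC_Os10g09200, annotated only as a hypothetical protein, read 495, 552 and 298 in P-SSD and 6.55, 6.77 and 10.5 in P-SLD. It rose by 5.81 ± 0.35 from dim LD signals, with an adjusted p of 0.0093 in limma.

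The remaining genes that rose covered a range of levels. LOC_Os02g30140, of unknown function, read 1064, 1044 and 557 in P-SSD and 41.6, 40.7 and 47.5 in P-SLD. P-SSD repeat 3 was dimmer than the other SD arrays, yet far above the LD arrays, and the gene rose by 4.30 ± 0.35, with an adjusted p of 0.038 in limma. LOC_Os10g22869, of unknown function, gave nearly equal SD signals of 275, 269.8 and 276 against 30.9, 20.1 and 17.6 in P-SLD (12.0-fold). Its adjusted p was 0.047 in limma, near the threshold, and 0.22 without P-SSD repeat 1. LOC_Os11g28130, of unknown function, read 98.4, 83.2 and 87.6 in P-SSD and 8.94, 8.15 and 9.99 in P-SLD (9.94-fold). It had the smallest standard error of the 9, 0.18 around a log2 difference of 3.32, with an adjusted p of 0.0058 in limma.

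LOC_Os01g71094, a basic 7S globulin precursor by its annotation, read 171.7, 135.8 and 162.6 in P-SSD and 21.2, 15.5 and 12.7 in P-SLD (9.51-fold). Its adjusted p was 0.047 in limma, near the threshold, and 0.22 without P-SSD repeat 1. LOC_Os11g41170, annotated as RPM1, an intracellular immune receptor in Arabidopsis, read 89.7, 62.1 and 74.8 in P-SSD and 9.30, 8.37 and 12.1 in P-SLD (7.62-fold). Its adjusted p was 0.027 in limma, and 0.12 without P-SSD repeat 1. For both genes the LD signals were dim, and the SD arrays stood together. The neighbouring locus LOC_Os11g41160, annotated as phosphoserine phosphatase, had a ratio of 0.439 (0.544 without P-SSD repeat 1), the opposite direction.

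Calls of these genes depended on single arrays. Without P-SSD repeat 1, OsPDIL5-3 and LOC_Os11g28130 kept an adjusted p of 0.039 each in limma, and the other 7 had 0.061 to 0.22. Without P-SLD repeat 1 or P-SLD repeat 3, 0 of the 9 passed (137 and 151 of the 201 entries at an unadjusted p under 0.05), and without P-SLD repeat 2 or P-SSD repeat 3 only OsPDIL5-3 did. Without P-SSD repeat 2, 4 passed, among them OsPDIL5-3 and Hd3a. With the repeat number as a block 0 passed and 190 had an unadjusted p under 0.05, and the adjusted p-values of the 9 were 0.076 to 0.52 in limma. All 9 ratios were at least 6.90 without any 1 array. Each of the 9 except LOC_Os02g30140 had a mean LD signal under 25, so these ratios were taken over dim signals.

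**Figure D2:**
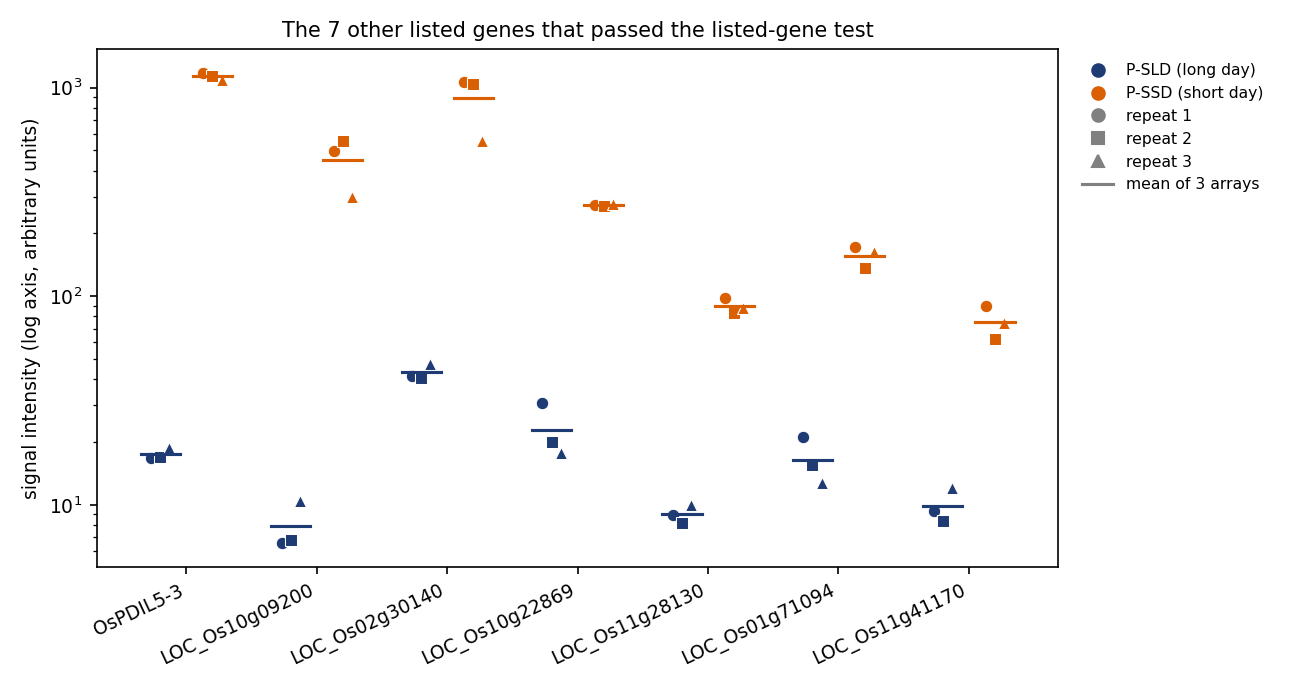
Signal intensity (log axis, arbitrary units) of the 7 genes other than Hd3a and Ehd1 that passed the listed-gene test, 1 point per array with the repeat shown by its shape, blue for P-SLD and orange for P-SSD, and a bar at the mean of 3 arrays. For each gene the 3 SD points lie above the 3 LD points, from OsPDIL5-3 at 1092 to 1178 in SD down to LOC_Os11g41170 at 62.1 to 89.7.

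The other entries are given by groups set from words in their annotations. Over all 201 entries, 98 (48.8%) were higher in SD and the median ratio was 0.496. No entry lies between 0.5 and 2, so a median shows little more than which side holds more entries, and nothing particular to a group is read from either.

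Of 6 redox entries 4 were higher in SD, and 1 of them, OsPDIL5-3, rose. The ferredoxin gene LOC_Os04g33630, whose product carries electrons in plastids, read 1421, 1315 and 1152 in P-SSD and 287.8, 126.8 and 85.6 in P-SLD, a 7.77-fold difference (log2 difference 3.14, standard error 0.46, adjusted p = 0.47 in limma). The SD arrays were nearly level, and the LD arrays differed more than 3-fold. The ratio was 12.2 without P-SLD repeat 1 and 6.25 without P-SLD repeat 3. On the lower side was a thioredoxin-like gene, LOC_Os02g53400, with a ratio of 0.330 and overlapping arrays. Its ratio was 0.206 without P-SSD repeat 3 and 0.487 without P-SLD repeat 3. The thioredoxin family gene LOC_Os04g35150 had a ratio of 0.467, and 0.503 without P-SLD repeat 1. Of 7 defence entries 5 were higher in SD, and 1 of them, the RPM1-like gene, rose. LOC_Os02g47230, annotated as a disease resistance and zinc finger gene, read 150.2, 198.5 and 101.0 in P-SSD and 22.0, 17.3 and 21.4 in P-SLD (adjusted p = 0.15 in limma). The pathogenesis-related PR5 genes LOC_Os01g03180 and LOC_Os10g34614 had ratios of 0.406 and 0.477, the latter 0.569 without P-SSD repeat 1.

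Of 19 transport entries 13 were higher in SD and 6 lower, and none passed the listed-gene test. The aquaporin gene PIP2.2 (LOC_Os02g41860), which encodes a plasma membrane water channel, read 216.1, 74.5 and 197.2 in P-SSD and 37.7, 26.6 and 8.62 in P-SLD (6.69-fold). P-SSD repeat 2 was low and P-SLD repeat 3 was the dimmest array of the gene. The oligopeptide transporter gene LOC_Os02g46850 read 746, 740 and 182.1 in P-SSD and 85.4, 117.7 and 103.0 in P-SLD (5.45-fold), so that P-SSD repeat 3 lay near the LD level. The purine permease gene LOC_Os04g49757 had 165.3, 82.4 and 147.1 in P-SSD and 340.1, 476 and 679 in P-SLD, a ratio of 0.264 with no overlap. For the choline transporter-like gene LOC_Os04g58504 the ratio was 0.411, and 0.527 without P-SSD repeat 2. HKT3 and HKT9 (LOC_Os01g34850 and LOC_Os06g48800), annotated as cation transporters, ran in parallel over the 6 arrays, at ratios of 2.84 and 2.70. The day lengths overlapped for both. The ratios were 4.67 and 4.27 without P-SLD repeat 3, and 2.31 and 2.17 without P-SLD repeat 2. Whether the probe sets of HKT3 and HKT9 share signal was not tested.

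Of 27 metabolic entries 19 were lower in SD and 8 higher (median ratio 0.458), and 1, the globulin-like LOC_Os01g71094, rose. The lowest ratio was that of thiC (LOC_Os03g47610), which acts in the synthesis of the pyrimidine part of thiamine. It read 32.9, 68.1 and 75.5 in P-SSD and 269.9, 249.1 and 343 in P-SLD, 4.88-fold higher in LD (log2 difference -2.36, standard error 0.41, adjusted p = 0.92 in limma). All 3 LD arrays were above all SD arrays, and P-SSD repeat 1 was the lowest. LOC_Os03g21810, annotated as nardilysin, a metallopeptidase, read 37.3, 33.6 and 166.2 in P-SSD and 373, 267.2 and 318 in P-SLD. Its ratio of 0.247 was 0.111 without P-SSD repeat 3, the array nearest to LD, and 0.318 without P-SSD repeat 2. The fructofuranosidase gene LOC_Os04g45290, whose product splits sucrose, read 501, 565 and 279.9 in P-SSD and 113.5, 136.3 and 46.1 in P-SLD (4.55-fold).

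Of 9 heat shock and chaperone entries 6 were lower in SD and 3 higher (median ratio 0.448), and none passed. The heat shock factor gene HSF30 (LOC_Os05g02410) read 55.5, 133.9 and 135.6 in P-SSD and 436, 463 and 267 in P-SLD, and the DnaJ domain gene LOC_Os04g57880, of the co-chaperone family, had a ratio of 0.297. Another heat shock factor gene, RHSF7 (LOC_Os03g06630), was 2.11-fold higher in SD with overlapping arrays (1.81-fold without P-SLD repeat 3), and the DnaJ homologue LOC_Os05g48810 was 2.38-fold higher, but 1.69-fold without P-SSD repeat 1.

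Of 14 transcription and chromatin entries 9 were lower in SD and 5 higher (median ratio 0.442), and none passed. The bromodomain gene LOC_Os04g53170, of a family that binds acetylated histones, read 248.2, 263 and 452 in P-SSD and 981, 728 and 1354 in P-SLD. A BEL1-like homeodomain gene, LOC_Os12g06340, read 120.2, 86.4 and 109.8 in P-SSD and 591, 257 and 199.9 in P-SLD. These ratios were 0.314 and 0.302, without overlap between day lengths, and for the BEL1-like gene P-SLD repeat 1 alone was more than 2-fold above the other LD arrays, with a ratio of 0.462 without it. The highest ratios were 3.08 for the HD-Zip gene LOC_Os04g45810, whose arrays overlapped, and 2.92 for a Dof zinc finger gene (AK063318).

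Of 19 signalling entries 13 were lower in SD and 6 higher (median ratio 0.390), and none passed. The kinase gene SRPK1 (LOC_Os09g37949), of a family that phosphorylates splicing factors, was at the upper end. It read 339, 411 and 383 in P-SSD and 70.8, 62.1 and 49.1 in P-SLD (6.22-fold, adjusted p = 0.15 in limma). The protein phosphatase 2C gene LOC_Os03g61690 had nearly equal repeats, 274.8, 267.1 and 263.0 in P-SSD and 72.6, 65.8 and 63.2 in P-SLD (3.99-fold, adjusted p = 0.39 in limma). At the lower end, the remorin gene LOC_Os10g36000 had a ratio of 0.272 with overlapping arrays, which was 0.101 without P-SSD repeat 2 and 0.430 without P-SLD repeat 1, and the phosphoinositide-dependent kinase gene LOC_Os06g48970 read 288.3, 293.5 and 687 in P-SSD and 1392, 1391 and 1770 in P-SLD. The neighbouring receptor-like kinase loci LOC_Os07g43560 and LOC_Os07g43570, both annotated CRK10, were both lower in SD, with ratios of 0.484 and 0.362 and overlapping day lengths. The first ratio was 0.550 without P-SSD repeat 1. The second was 0.212 without P-SSD repeat 3 and 0.451 without P-SSD repeat 2. Their annotation is shared, and whether their probe sets are separate was not tested.

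RNA and translation entries were split, 6 higher and 6 lower, and none passed. The initiation factor gene IF-2 (LOC_Os04g47860) had 89.4, 100.7 and 112.6 in P-SSD and 30.8, 28.0 and 28.8 in P-SLD (3.46-fold). Pentatricopeptide repeat genes, whose products process organelle RNA, lay at both ends. LOC_Os03g13830 read 712, 700 and 239.7 in P-SSD and 12.9, 243.7 and 14.9 in P-SLD, so that P-SLD repeat 2 and P-SSD repeat 3 were nearly level. Its ratio of 6.08 was 39.6 without P-SLD repeat 2 and 4.26 without P-SLD repeat 1. LOC_Os03g16450 had a ratio of 0.170, with 6.57, 68.3 and 22.5 in P-SSD and 70.4, 168.5 and 335 in P-SLD, and this was 0.0759 without P-SSD repeat 2 and 0.272 without P-SLD repeat 3. The splicing factor gene LOC_Os07g10810, annotated as a U2 snRNP auxiliary factor, had 0.209 with overlapping arrays.

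Genes annotated as unknown or hypothetical were the largest group, with 31 of 59 higher in SD and 4 that rose. The lowest ratio of all 201 entries was that of LOC_Os04g46100, which read 45.8, 70.7 and 62.7 in P-SSD and 559, 581 and 452 in P-SLD. Its lowest LD signal was 6.39 times its highest SD signal, and the log2 difference was -3.17 (standard error 0.31, adjusted p = 0.084 in limma, 0.38 without P-SSD repeat 1). LOC_Os02g03670 read 39.6, 37.7 and 33.0 in P-SSD and 200.3, 141.9 and 323 in P-SLD, with a ratio of 0.166. Of the 23 entries with other annotations, 13 were higher. Among them a SNARE gene, LOC_Os06g50120, of the membrane fusion machinery, read 883, 126.7 and 858 in P-SSD and 102.5, 81.6 and 67.1 in P-SLD, so that P-SSD repeat 2 lay near LD. At the other end a cupin gene, LOC_Os12g42860, read 152.6, 267.6 and 705.3 in P-SSD and 1405, 820.2 and 1484 in P-SLD. Its ratio of 0.303 was 0.170 without P-SSD repeat 3 and 0.393 without P-SSD repeat 1. An outer envelope protein gene, LOC_Os12g12370, had 0.392.

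**Figure D3:**
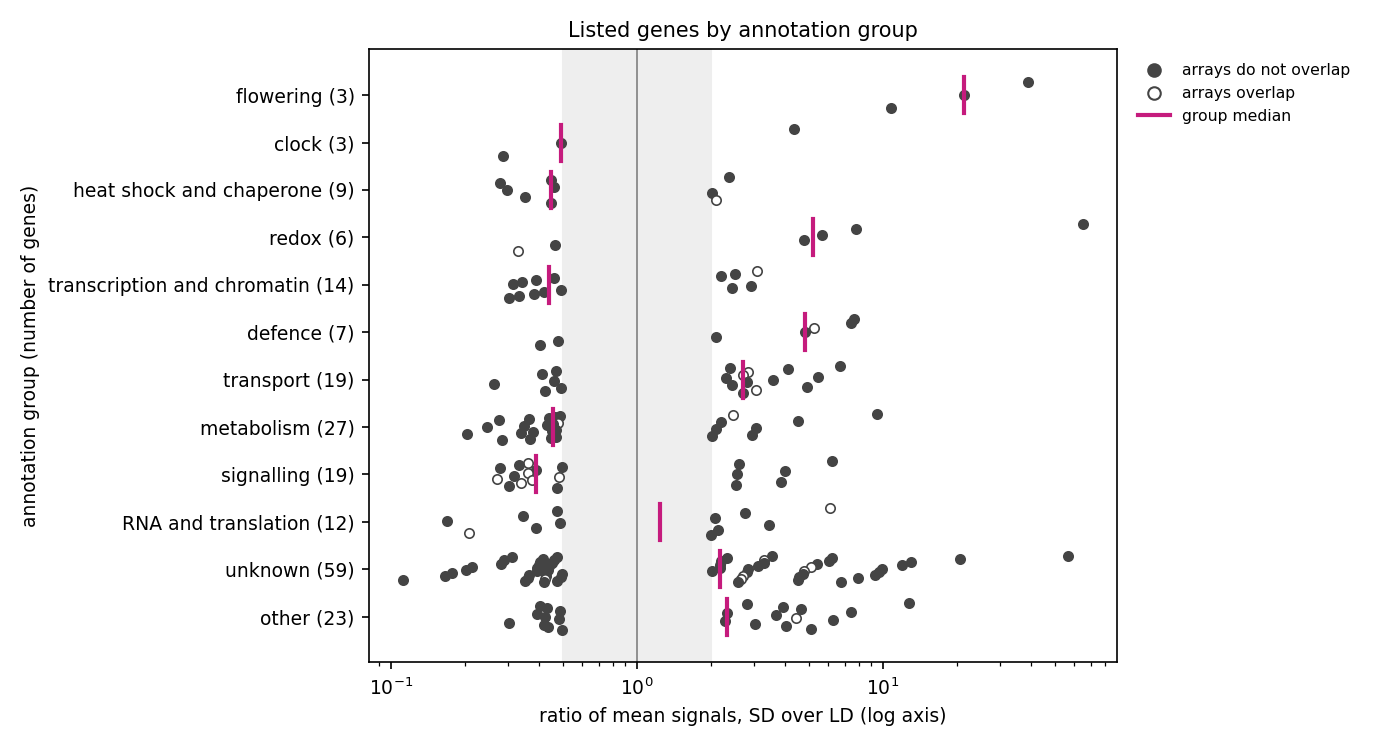
Ratio of mean signals, SD over LD (log axis), of the 201 listed entries by annotation group, 1 point per entry, filled where the 3 SD and 3 LD arrays do not overlap, with a bar at the group median. The shaded band from 0.5 to 2 is empty because entries were listed for their fold, the 3 flowering genes lie at 10.8 and above, and the counts by side include 13 of 19 transport entries higher and 19 of 27 metabolism entries lower.

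The SD arrays were not equally far from the LD arrays. P-SSD repeat 1 was the SD array farthest from the LD level for 106 of the 201 entries, and P-SSD repeat 3 was the nearest for 113. The median coefficient of variation between repeats was 36.0% in SD and 23.2% in LD. Leaving out P-SSD repeat 1 brought 7 higher and 27 lower entries under a 2-fold difference, and leaving out P-SSD repeat 3 brought 4 and 8. No entry changed direction without any 1 array, and 134 of the 201 entries, 77 higher and 57 lower, stayed at least 2-fold without any 1.

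Single arrays carried some entries, which were chosen for this description after their values were seen. P-SSD repeat 3 was under 0.5 times both other SD arrays for 17 of the 98 higher entries, and over 2 times both for 20 of the 103 lower entries. LOC_Os01g49250, annotated as SLL2-S9-protein, read 920.3, 1067 and 179.4 in P-SSD and 146.9, 164.5 and 153.2 in P-SLD. Its first 2 SD repeats were level with each other, and repeat 3 was near the LD arrays. LOC_Os05g41620, of unknown function, also had a low P-SSD repeat 3, with 1389, 1315 and 272.8 in P-SSD and 200.4, 189.9 and 238.1 in P-SLD. P-SSD repeat 1 was over 2 times both other SD arrays for 7 higher entries. The retrotransposon entry LOC_Os01g37610 read 353.5, 60.8 and 60.1 in P-SSD and 27.4, 26.5 and 21.7 in P-SLD, with a ratio of 6.28 that was 2.40 without repeat 1. The thioredoxin H-type gene LOC_Os05g07690 went from 4.77 to 2.42 in the same way.

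**Figure D4:**
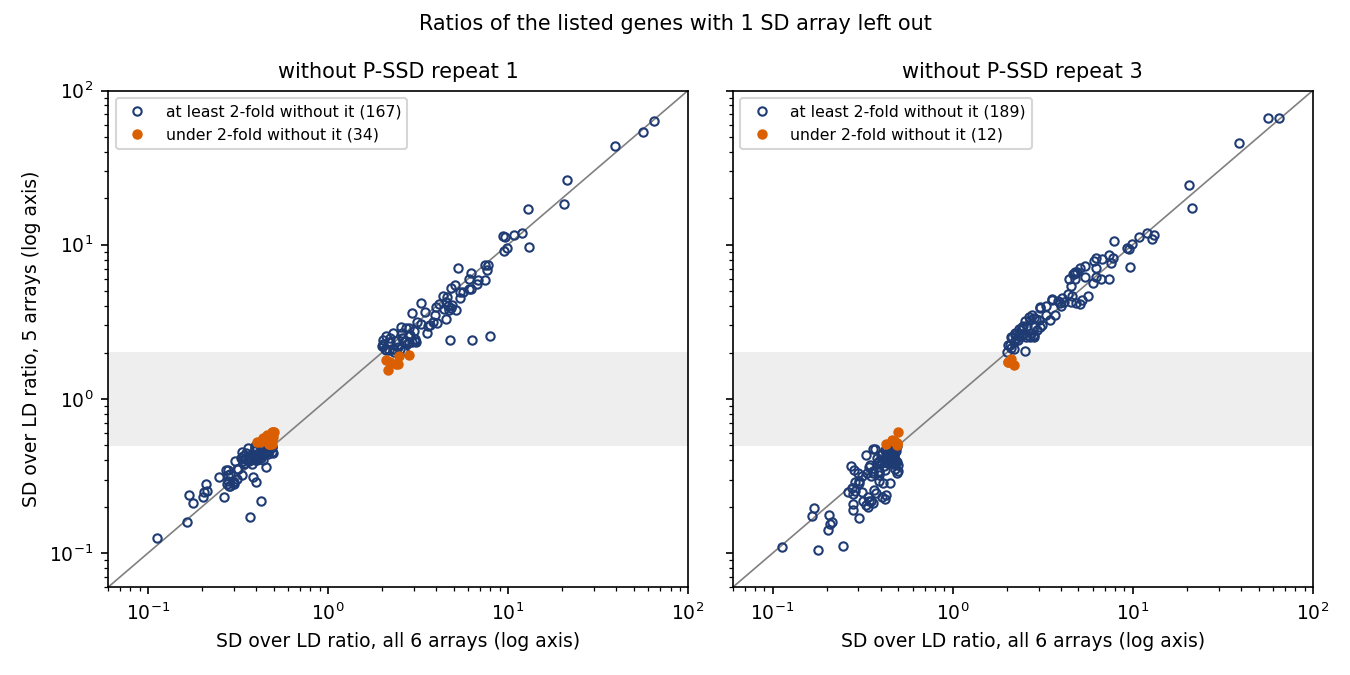
SD over LD ratio of the 201 listed entries with 5 arrays (vertical, log axis) against all 6 arrays (horizontal, log axis), without P-SSD repeat 1 on the left and without P-SSD repeat 3 on the right, with a line at equality and a band from 0.5 to 2. Filled points are entries that dropped under a 2-fold difference, 34 without repeat 1 and 12 without repeat 3, and none crosses to the other direction.

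Over the whole array, the probe sets that passed were Os.10941.1.S1_at and Os.13026.1.S1_at, which the files used here do not pair with genes. Os.10941.1.S1_at read 377, 491 and 385 in P-SSD and 23.2, 39.6 and 50.3 in P-SLD (log2 difference 3.70 after quantile normalisation, standard error 0.34, adjusted p = 0.0050 in limma). Os.13026.1.S1_at read 114.0, 506 and 213.6 in P-SSD and 7.36, 6.52 and 1.10 in P-SLD (log2 difference 6.17, standard error 0.76, adjusted p = 0.047 in limma). Without P-SSD repeat 1 their adjusted p-values were 0.053 and 0.12 and 0 probe sets passed (1155 at an unadjusted p under 0.05), and with the repeat number as a block they were 0.052 and 0.061. The lower probe sets with the smallest p-values in limma were Os.27750.1.A1_at and Os.49255.1.S1_at, with log2 differences of -2.40 and -2.19, and neither passed. Os.27750.1.A1_at read 55.5, 56.7 and 148.1 in P-SSD and 523.5, 407.5 and 547.5 in P-SLD, with an adjusted p of 0.080. Os.49255.1.S1_at read 17.9, 24.2 and 32.1 in P-SSD and 125.8, 108.4 and 151.4 in P-SLD, with an adjusted p of 0.12.

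At an unadjusted p under 0.05 in limma there were 1650 probe sets (6.51%). With a 2-fold difference as well, 317 probe sets (1.25%) were higher in SD and 674 (2.66%) lower. This split moved with the scaling of the arrays. It was 136 higher and 1214 lower on signals as deposited and 403 and 503 after centring each array on its median, and the median log2 difference over all probe sets kept was 0.02, -0.20 and 0.12 under these scalings. A t-test with equal variances on the quantile normalized log2 signals of the 6 arrays gave 119 higher and 266 lower. It gave 1 probe set at a Benjamini-Hochberg adjusted p under 0.05. The study's methods also name a t-test, but the normalization, filter and fold measure used here were not the study's. These counts are therefore not those of its procedure.

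Of the 201 entries, 30 loci were also listed at the glume stage, and 28 had the same direction there, 14 higher and 14 lower in SD. Only ratios are compared, since it is not known whether the tables of the stages share a scale. Hd3a had a ratio of 39.2 at the pistil/stamen stage and 73.1 at the glume stage, and Ehd1 had 21.4 and 22.4. For neither gene did the difference between the stages pass (adjusted p = 1 in limma each). The remaining 2 loci were lower in SD at the glume stage and higher in SD at the pistil/stamen stage. Listing at 2-fold or more in opposite directions builds in a large difference between the stages, so the p-values of these loci, from a fit on the 30 loci alone, are no independent test. LOC_Os02g46850, the oligopeptide transporter gene, had a glume stage ratio of 0.206, from 163.8, 188.7 and 153.7 in G-SSD and 779, 864 and 812 in G-SLD. The difference between its day length effects was 4.48 ± 0.75 (log2, standard error), with an adjusted p of 2.3e-04 in limma. LOC_Os02g13430, annotated as receptor-like kinase 5, had a glume stage ratio of 0.201. At the pistil/stamen stage it read 397, 339 and 393 in P-SSD and 59.9, 66.9 and 313 in P-SLD. P-SLD repeat 3 was thus near the SD level. The gene's ratio of 2.57 was 5.94 without that array, but 1.98, under 2-fold, without P-SLD repeat 1. It did not pass the listed-gene test at this stage. Its effects differed by 4.29 (standard error 0.63, adjusted p = 3.9e-06 in limma). In this fit the spread was shared over the 30 loci, so neither standard error is that of the locus alone. Without P-SSD repeat 2 these adjusted p-values were 0.67 and 0.89 in limma, without G-SLD repeat 2 they were 0.11 and 0.12, and without P-SSD repeat 3 that of LOC_Os02g13430 was 1.0, so that neither locus passed in every fit. Over all 25360 probe sets, 0 differed between the stages at an adjusted p of 0.05 in limma, and 906 had an unadjusted p under 0.05.

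**Figure D5:**
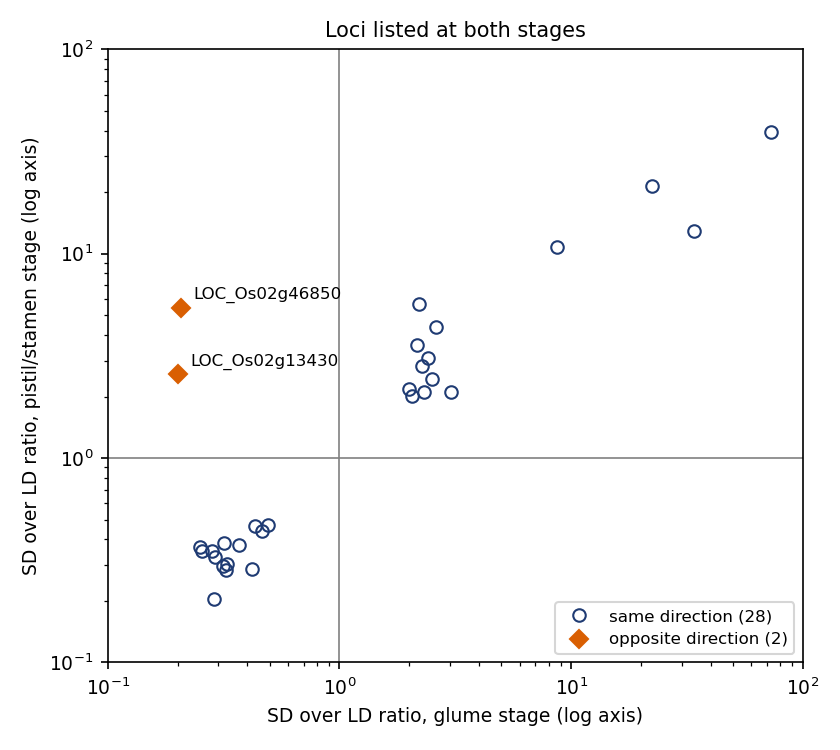
SD over LD ratio at the pistil/stamen stage (vertical, log axis) against that at the glume stage (horizontal, log axis) for the 30 loci listed at both, with lines at a ratio of 1. The 28 loci in the same direction are open circles, and the 2 in opposite directions, with ratios of 5.45 and 2.57 at the pistil/stamen stage, are filled diamonds at the upper left.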

How the data were processed

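The authors deposited linear signal intensity for 57381 probe sets on 12 arrays, and for each stage a table of listed genes with 6 linear intensity values. The submitters' processing notes name GCOS 1.4, and the study's methods describe invariant-set normalization in dChip with a low percentile of perfect-match signals as background. No source used here says whether the matrix passed through dChip. The listed genes' tables also hold the authors' own fold changes and P values, which were not used. The glume stage table's sample columns carry the letter P and were taken as glume stage columns because their values are those of the study's glume stage list.

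Arrays were grouped by title. Matrix signals were quantile normalized on the log2 scale, 187 control probe sets were removed, and 25360 others with a signal in the top part of the array (60th percentile or higher) on 3 or more arrays were tested. limma 3.58.1 in R 4.3.3 (lmFit, eBayes with trend, two-sided, Benjamini-Hochberg) was fitted with 1 coefficient for each of the 4 groups. Listed genes were fitted on log2 signals of the 6 arrays, and their p-values were adjusted as if 57194 probe sets had been tested, with probe sets that were not listed counted as having larger p-values, so these adjusted p-values are upper bounds for that adjustment. With 3 arrays against 3, an exact permutation test of a single value cannot give a p under 0.1, so none was used. The number of arrays limits the precision. The p-values reflect only how far these repeats differ, with the spread shared in limma over the genes or probe sets fitted together.

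Whether same-numbered arrays pair was checked by correlating their deviations from the group means over probe sets, which gave 0.22, 0.29 and 0.51 for repeats 1, 2 and 3, all over 0.1. This comes from the data and not from the labels, and over the listed genes the correlations were 0.0072, 0.14 and 0.10, so repeat 1 was not over 0.1 there. Blocked values are given where a call changes.

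Genes were named if they passed the listed-gene test, belonged to the flowering or clock lists, had 1 of the 2 highest or 2 lowest ratios of their annotation group, or were listed at both stages in opposite directions. Annotation groups were set by words in the annotations. LOC_Os11g41160, LOC_Os07g43560, LOC_Os07g43570, HKT3, HKT9 and the genes described for single arrays were added outside this rule, with their values in view. The comparison, the lists and the tests were chosen with earlier results of these data known. Results for 1 further gene are not reported here.

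The fit over all probe sets, but not the listed-gene test, was run on simulated data of 25360 probe sets with independent noise. Such noise leaves out the correlation between arrays of the same repeat number. The outcome is not given here, and nothing is read from it.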

Additional observations from a re-analysis of the deposited data

Results flagged for a closer look

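For a pair of loci the day length effect had opposite directions at the pistil/stamen stage and the glume stage, past the threshold in a limma test of the difference fitted on the 30 loci listed at both stages. Both loci had been listed for at least 2-fold at each stage, which builds in a large difference, so this is no independent test, and in the fit over all probe sets 0 of 25360 passed (906 at an unadjusted p under 0.05). For LOC_Os02g46850, annotated as oligopeptide transporter 4, the log2 difference SD minus LD was 2.20 at the pistil/stamen stage and -2.28 at the glume stage, a difference of 4.48. For LOC_Os02g13430, annotated as receptor-like protein kinase 5, it was 1.80 and -2.49, a difference of 4.29. The p-values adjusted for 57194 tests were 2.3e-04 and 3.9e-06 in limma, from a spread shared over the 30 loci. With the repeat number as a block they were 7.7e-05 and 6.6e-06. Without P-SSD repeat 1 they were 0.0061 and 1.8e-05. Both were lost without P-SSD repeat 2 (0.67 and 0.89) and without G-SLD repeat 2 (0.11 and 0.12), and that of LOC_Os02g13430 also without P-SSD repeat 3 (1.0). The glume stage arrays were left out in turn after the data had been seen.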

How the results depend on the processing

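Main values were 2 probe sets at an adjusted p under 0.05, 317 higher and 674 lower at 2-fold with an unadjusted p under 0.05, and 9 listed genes. These counts, in that order where given, moved as follows. Signals as deposited gave 1, 136 and 1214, and median centring gave 1 probe set. No filter on low signals gave 1356 higher and 1656 lower, and the stricter filter, which tests fewer probe sets, gave 1, 79 and 305. Adding 16 to the signals gave 115 and 338. With the replicate block 1 probe set passed, lower in SD, and 485 were higher, and 0 listed genes passed. Only the 6 arrays of the stage gave 0 probe sets (997 at an unadjusted p under 0.05), and the equal-variance t-test gave 1, 119 and 266. Listed calls were 5 without trend and 5 with centred columns. Between the stages, array weights gave 1 probe set at an adjusted p under 0.05, and the 906 at an unadjusted p became 1389 as deposited, 2583 without a filter and 435 with the stricter filter. Leaving out 1 array gave 0 to 24 probe sets, 244 to 662 higher, 493 to 1514 lower, 0 to 4 listed genes, and, between the stages, 0 to 1 and 717 to 1652. The 24 probe sets, 2 higher and 22 lower, came without P-SSD repeat 3. The cause of these changes was not tested. No named gene changed direction under any setting run. The block changed no call other than those named here and in the report.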
